A study of Homo sapiens with 6 samples.

Results

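HMGA2, KDM2A and genes tied to the let-7 microRNA family were examined in OVCAR3 cells with and without NUF2 knockdown. The group holds 10 of the 19973 genes listed in the deposited table: HMGA2 and HMGA1, KDM2A and KDM2B, LIN28A and LIN28B, IGF2BP1, IGF2BP2 and IGF2BP3, and DICER1. These genes were taken by symbol, and they were chosen with their read counts and their changes between the same libraries already known, so their values are given as a description with no p-value, and counts of calls among them stand only beside those of all genes. OVCAR3 is a human epithelial ovarian carcinoma cell line. The control group, shNC, contained 3 libraries of cells transfected with a control hairpin and labelled WT. The knockdown group, shNUF2, contained 3 libraries of cells transfected with 1 hairpin against NUF2, a subunit of the kinetochore complex that attaches chromosomes to spindle microtubules. Cells of both groups carried a puromycin resistance vector and were kept as puromycin-selected lines, and neither another hairpin against NUF2 nor a rescue was among the libraries used here. Whether the 3 libraries of a group came from separate cultures is not given in the sources used here, so the p-values below measure only the spread between these libraries.

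let-7 is a family of microRNAs that lowers the output of messenger RNAs to which it pairs, mainly through bases 2 to 8 of the microRNA, the seed. Its precursors are cut in the nucleus by DROSHA with DGCR8, exported by XPO5 and cut again by DICER1, and the LIN28 proteins block this maturation. HMGA2, an architectural chromatin protein abundant in embryonic tissue and in many carcinomas, is among the best known let-7 targets, and the IGF2BP family of messenger RNA binding proteins and the LIN28 genes carry let-7 sites as well. KDM2A removes methyl groups from dimethylated lysine 36 of histone H3 (H3K36me2). A report in clear cell renal cell carcinoma, taken up in the discussion of the study, described NUF2 as keeping KDM2A low and HMGA2 high by way of this histone mark, and the levels of both genes after NUF2 knockdown in ovarian carcinoma cells bear on the same pair. The libraries were made from polyadenylated RNA, and mature let-7 was not analysed here.

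The mature sequences of 3 family members from RefSeq (GRCh38.p14) show what the family shares. let-7a serves as the reference, let-7i differs from it in 4 bases, and miR-98 in 2. The seed is in capitals.
let-7a-5p: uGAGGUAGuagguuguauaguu
let-7i-5p: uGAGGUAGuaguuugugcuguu
miR-98-5p: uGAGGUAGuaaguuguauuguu
The same seed, GAGGUAG, was found in the mature products of all 12 let-7 and miR-98 loci in the table. let-7i is encoded on the plus strand at chr12:62603691-62603712, and the product of 1 let-7a locus at chr9:94175962-94175983.

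The annotated 3′ UTRs of the 10 genes (GENCODE release 29, GRCh38) were searched on the transcribed strand for CTACCTC, the complement of the seed. Of all genes tested that have an annotated 3′ UTR, 11.2% contained the motif at least once in the longest 3′ UTR. HMGA2, LIN28B and IGF2BP1 each contained it 4 times, and across all coding transcripts only 9 tested genes, 0.0704%, contained it 4 times or more. HMGA1, LIN28A, IGF2BP2 and IGF2BP3 each contained it once, while KDM2A, KDM2B and DICER1 contained 0 matches in any coding transcript. The 4 matches of HMGA2 lie in exon 5 of 5 of transcript HMGA2-204, within a 3′ UTR of 3003 bases, and are shown with the 14 bases before them and the base after them, the match in capitals.
HMGA2 site 1, chr12:65963299-65963320: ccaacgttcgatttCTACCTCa
HMGA2 site 2, chr12:65964534-65964555: cccactactcaataCTACCTCt
HMGA2 site 3, chr12:65964946-65964967: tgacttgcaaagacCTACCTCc
HMGA2 site 4, chr12:65965799-65965820: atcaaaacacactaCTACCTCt
Only the first of these is followed by an A, the base that extends a seed match to 8 bases, and it lies 21 bases after the stop codon. Of the 7 coding transcripts annotated for HMGA2, 1 contains the matches. The transcript with the longest 3′ UTR, HMGA2-210 with 7421 bases, contains 0, and counts per gene do not tell these transcripts apart.

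IGF2BP1 is the other expressed gene with 4 matches, and 3 of them are followed by an A. They lie on the plus strand in exon 15 of 15 of transcript IGF2BP1-201, whose 3′ UTR is 6206 bases long. The 4 are shown because IGF2BP1 and HMGA2 have the same number of matches. Their log2 fold changes with shNUF2 were −0.16 ± 0.05 and 2.65 ± 0.11 (SE), and a part of let-7 in either was not tested.
IGF2BP1 site 1, chr17:49051062-49051083: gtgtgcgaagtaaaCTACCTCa
IGF2BP1 site 2, chr17:49053699-49053720: agcagtgctagtaaCTACCTCa
IGF2BP1 site 3, chr17:49054353-49054374: tataaatggattaaCTACCTCa
IGF2BP1 site 4, chr17:49054998-49055019: cacttttgttttatCTACCTCt
The single matches of IGF2BP2, at chr3:185644220-185644241 on the minus strand, and of IGF2BP3, at chr7:23311795-23311816 on the minus strand, are followed by an A, and that of HMGA1, at chr6:34245830-34245851, is not.
IGF2BP2 site: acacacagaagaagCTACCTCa
IGF2BP3 site: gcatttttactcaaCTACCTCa
HMGA1 site: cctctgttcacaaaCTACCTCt

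**Figure D1:**
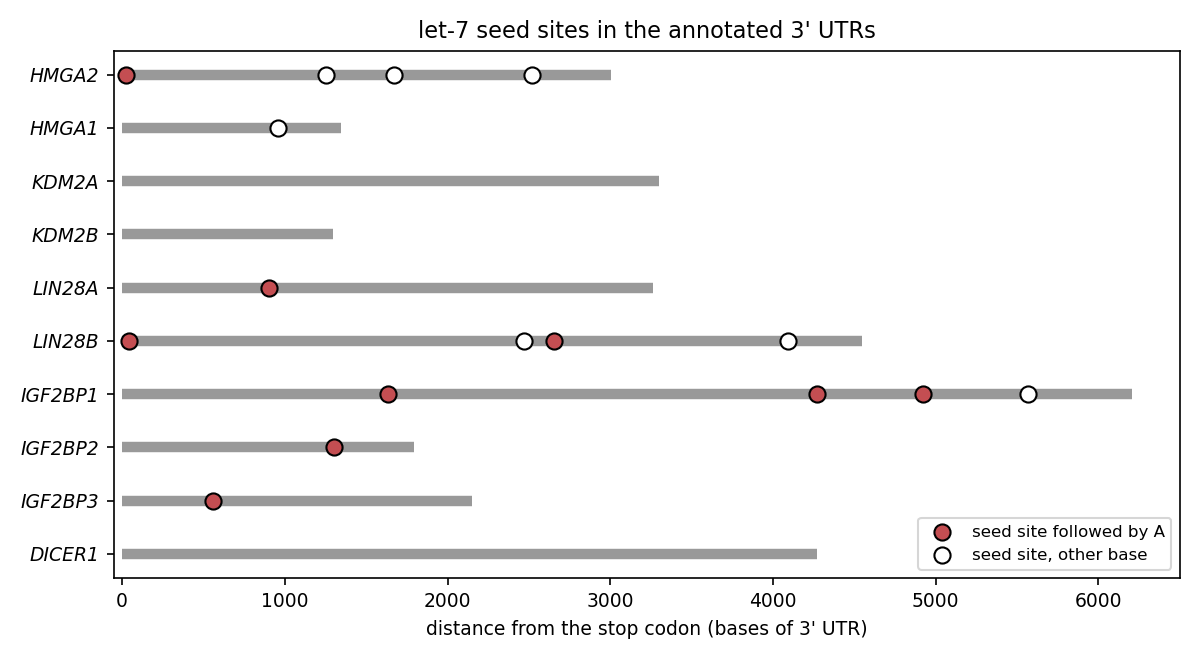
let-7 seed matches in the 3′ UTR of the coding transcript with the most matches of each of the 10 genes. Grey bars give the 3′ UTR from the stop codon (0) in bases, and circles mark matches, filled where the next base is A. HMGA2, LIN28B and IGF2BP1 carry 4 matches each, and KDM2A, KDM2B and DICER1 carry 0.

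The libraries held 13057534 to 16995452 reads counted on genes, and 12874 genes had enough reads to be fitted, 8 of the 10 genes among them. NUF2 was lower with shNUF2, at 20.8, 22.3 and 25.5 CPM (read counts scaled to library size with edgeR’s TMM factors) against 63.5, 68.6 and 63.5 with shNC. Its log2 fold change was −1.51 ± 0.08 (SE) in edgeR's fit, and the groups did not overlap. Of the markers of epithelial ovarian carcinoma, KRT7, KRT8, MSLN and PAX8 averaged 668, 337, 392 and 10.1 CPM with shNC, while CLDN3 had 0 reads in any library and WT1, KRT19 and SOX17 had too few to be fitted. EPCAM and CDH1 were low, at 3.39 and 1.38 CPM with shNC. Low EPCAM, CDH1 and WT1 are unusual for OVCAR3, and the identity of the cells was not tested. The marker levels also differed between the groups: KRT8 (1.04 ± 0.04) and CLDN4 (1.14 ± 0.07) were called higher with shNUF2, and MSLN (−0.75 ± 0.04) and MUC16 (−0.75 ± 0.09) fell at an adjusted p under 0.05 in edgeR. Markers of fibroblasts summed to 84 to 90.6 CPM with shNC and 69 to 76.5 with shNUF2. Most of this was COL1A1, at 81.7 and 62.4 CPM on average, whereas DCN was called higher, at 3.66 and 8.48 CPM, and COL3A1 was higher in every shNUF2 library, at 0.0622 and 0.866 CPM. PDGFRA had 0 reads and 4 of the 8 had at most 3 reads in every library. Leukocyte markers summed to 1.83 to 2.94 CPM against 4.9 to 7.46 and endothelial markers to 2.13 to 3.45 against 4.82 to 6.46, both higher with shNUF2. MS4A1 had 0 reads in any library and KDR 0 with shNC. The part of these marker signals in the changes described here was not tested.

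A gene was called when its log2 fold change was beyond 1 and its unadjusted p under 0.05 in edgeR's quasi-likelihood test, the thresholds of the study’s methods with the fold read on the log2 scale. By this rule 9.41% of the 12874 genes were higher and 4.16% were lower with shNUF2. HMGA2 was the only 1 of the 10 genes called, and it was called higher. At a Benjamini-Hochberg adjusted p under 0.05 and any fold, 33.9% of all genes were higher and 33.8% lower, and 5 of the 10 genes were higher and 3 lower. Every shNUF2 library was above every shNC library for 35.2% of all genes and below for 35.4%, and all 8 fitted genes of the group fell in these classes, 5 above and 3 below. Because the genes were chosen on this contrast, nothing is read from these counts. Their median log2 fold change was 0.65, against −0.01 for all genes tested.

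HMGA2 (ENSG00000149948), on the plus strand at chr12:65824460-65966291, showed the largest change of the group. Reads counted on it numbered 92, 88 and 107 with shNC and 523, 485 and 574 with shNUF2. Scaled to library size this was 6.47, 5.51 and 6.22 CPM with shNC and 38.8, 37.3 and 38.2 CPM with shNUF2. The lowest shNUF2 library was well above the highest shNC library. In bulk RNA a change in every cell and a change in the share of cells that carry the transcript cannot be told apart. The means were 6.07 ± 0.5 and 38.1 ± 0.745 CPM (SD, n = 3 each), a ratio of 6.28 and a fitted log2 fold change of 2.65 ± 0.11 (SE). As a level per gene length HMGA2 stayed modest, with 0.407 ± 0.0316 FPKM (reads scaled by gene length and library total) with shNC and 2.49 ± 0.0261 with shNUF2. This placed it at the percentile 9.17 of all tested genes by FPKM with shNC and at 30.2 with shNUF2. The deposited length, 15070 bp, joins the exons of all transcripts, so the FPKM of HMGA2 is low for any shorter transcript in use. In GENCODE 29 the gene overlaps 3 annotated genes on the opposite strand, RPSAP52 among them, and the strand setting of the counting is not given in the sources used here.

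HMGA1 (ENSG00000137309, chr6:34236873-34246231, plus strand) encodes the other member of the AT-hook family of chromatin proteins. It was measured at 476, 479 and 509 CPM with shNC and at 807, 805 and 778 CPM with shNUF2. The groups did not overlap, and the means of 488 ± 18.2 and 797 ± 15.8 CPM (SD, n = 3) gave a log2 fold change of 0.71 ± 0.04. HMGA1 was among the most strongly expressed genes of these cells, at 212 FPKM with shNC and 338 with shNUF2, above 99.2% and 99.5% of the tested genes. The HMGA family was therefore almost entirely HMGA1 in both groups. The share of HMGA2 in the summed FPKM of the pair was 0.209%, 0.177% and 0.188% in the shNC libraries and 0.737%, 0.711% and 0.751% in the shNUF2 libraries. The sum itself went from 213 ± 8.03 to 340 ± 6.9 FPKM. HMGA1 has 7 named pseudogenes in the annotation, and how reads shared with them were counted is not known.

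KDM2A (ENSG00000173120, chr11:67119263-67258082, plus strand), the H3K36me2 demethylase, was higher with shNUF2. Its values were 99.6, 89.0 and 87.4 CPM with shNC and 168, 167 and 175 CPM with shNUF2. No shNUF2 library came near the shNC range, and the means of 92.0 ± 6.65 and 170 ± 4.42 CPM (SD, n = 3) corresponded to a log2 fold change of 0.89 ± 0.05, below the threshold of 1. HMGA2 and KDM2A were thus both higher in the same 3 libraries, and the H3K36me2 mark, the KDM2A protein and its binding at HMGA2 were not analysed here. KDM2B (ENSG00000089094, chr12:121429096-121581023, minus strand), its paralog and a subunit of the polycomb complex PRC1.1, was at 30.0, 33.2 and 30.9 CPM with shNC and 56.5, 55.2 and 52.2 CPM with shNUF2. Its log2 fold change was 0.80 ± 0.07, which differed from that of KDM2A by less than the sum of their standard errors. KDM2A kept about the same share of the summed FPKM of both genes, 79.3% ± 1.82 with shNC and 80.3% ± 1.02 with shNUF2, while the sum went from 11.3 ± 0.538 to 20.1 ± 0.299 FPKM. Neither gene contains a let-7 seed match in an annotated 3′ UTR. RNF34 overlaps KDM2B on the opposite strand.

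DICER1 (ENSG00000100697, chr14:95086228-95158010, minus strand), the enzyme that releases mature let-7 and most other microRNAs from their precursors, was lower with shNUF2. It was measured at 111, 111 and 110 CPM in the shNC libraries, which were nearly equal, and at 68.6, 64.0 and 69.0 CPM in the shNUF2 libraries. The means of 111 ± 0.511 and 67.2 ± 2.78 CPM (SD, n = 3) gave a ratio of 0.607 and a log2 fold change of −0.72 ± 0.05. No other of the 10 genes was lower by as much. DICER1-AS1 overlaps DICER1 on the opposite strand.

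The LIN28 genes, whose proteins hold back let-7 maturation, were at or near 0. LIN28B (chr6:104936616-105083332) had 0 reads in all 6 libraries, where 3 reads would correspond to 0.177 to 0.23 CPM. For LIN28A (chr1:26410817-26429728) all shNC libraries were at 0, and those with shNUF2 had 2, 3 and 0 reads. Neither was fitted, both groups were at or under this floor, and no fold change is given. The absence of reads is a limit of detection at this depth and not a statement on protein.

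The 3 IGF2BP genes, which encode binding proteins that stabilize messenger RNAs, moved in different directions. IGF2BP1 (ENSG00000159217, chr17:48997385-49056145, plus strand) was slightly lower with shNUF2, at 98.6, 97.6 and 103 CPM against 114, 113 and 108 CPM, with a log2 fold change of −0.16 ± 0.05. IGF2BP3 (ENSG00000136231, chr7:23310209-23470491, minus strand) was also slightly lower, at 85.5, 84.3 and 87.9 CPM against 98.9, 95.5 and 89.8 CPM, with −0.14 ± 0.05. In both genes the lowest shNC library was only a few CPM above the highest shNUF2 library. IGF2BP2 (ENSG00000073792, chr3:185643130-185825042, minus strand) was higher, at 39.2, 39.4 and 37.0 CPM against 27.2, 25.4 and 24.5 CPM, with a log2 fold change of 0.59 ± 0.08. The summed FPKM of the family was nearly the same in both groups, 27.8 ± 1.08 with shNC and 27.3 ± 0.321 with shNUF2, but its makeup shifted. IGF2BP2 contributed 17.5% ± 0.328 of it with shNC and 26.1% ± 1.17 with shNUF2, while IGF2BP1 went from 42.1% to 37.5% and IGF2BP3 from 40.4% to 36.4%. MALSU1 overlaps IGF2BP3 and IGF2BP2-AS1 overlaps IGF2BP2 on the opposite strand.

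**Figure D2:**
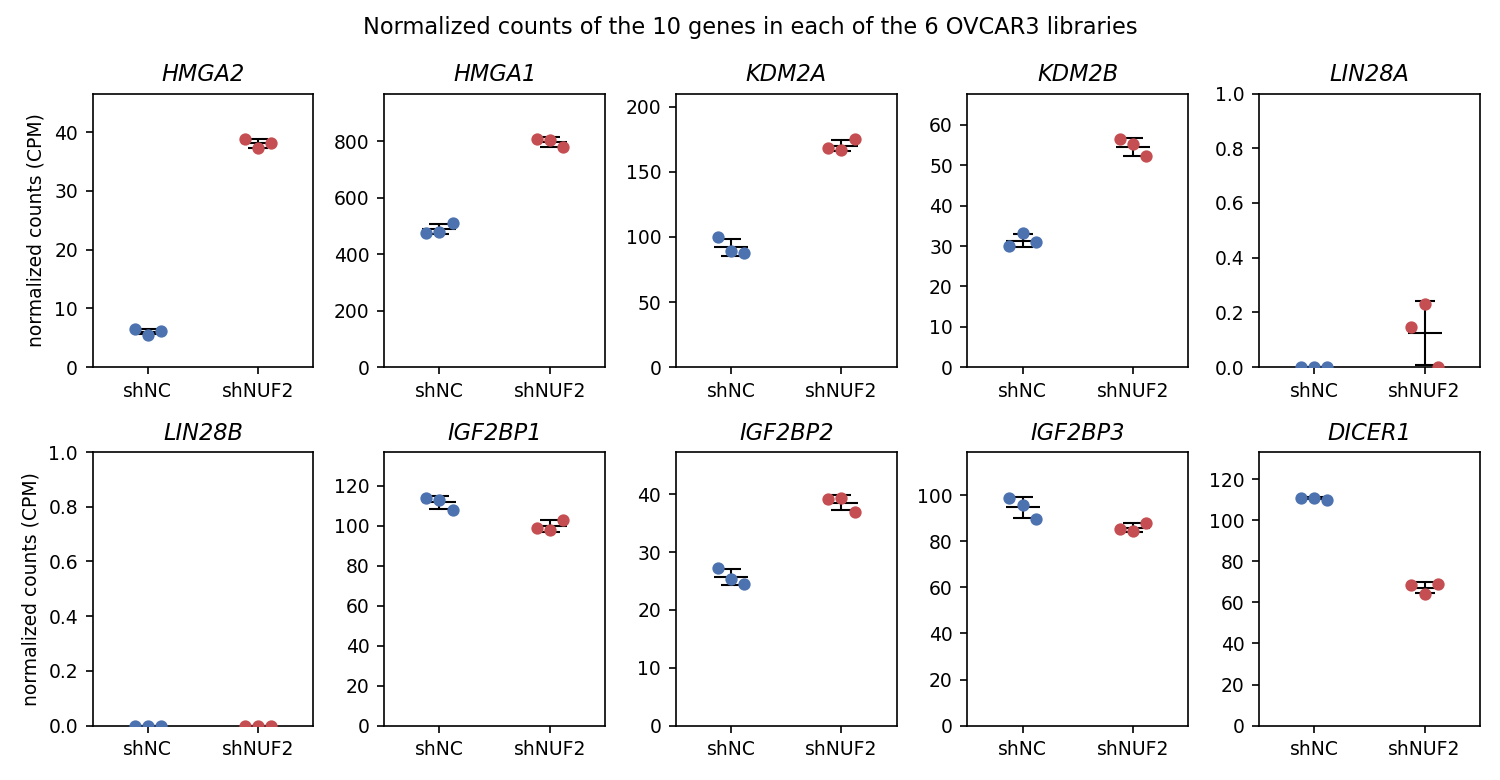
Normalized counts (CPM, TMM-scaled, linear axes from 0 that differ between panels) of the 10 genes in the 3 shNC and 3 shNUF2 libraries. Points are libraries, and bars give the mean and SD of each group. HMGA2, HMGA1, KDM2A, KDM2B and IGF2BP2 are higher and IGF2BP1, IGF2BP3 and DICER1 lower in every shNUF2 library, and LIN28A and LIN28B lie at or near 0.

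Compared per gene length, HMGA1 headed the order of levels in the shNC libraries, followed by IGF2BP1 at 11.7 ± 0.338 FPKM, IGF2BP3 at 11.2 ± 0.526, KDM2A at 8.97 ± 0.611, DICER1 at 8.84 ± 0.0382, IGF2BP2 at 4.88 ± 0.243, KDM2B at 2.33 ± 0.136 and HMGA2 at 0.407 FPKM. The libraries of IGF2BP1 and IGF2BP3 overlapped in this order, as did those of KDM2A and DICER1. With shNUF2 the order of levels was HMGA1, KDM2A at 16.2 ± 0.445 FPKM, IGF2BP1 at 10.2 ± 0.321, IGF2BP3 at 9.93 ± 0.213, IGF2BP2 at 7.13 ± 0.258, DICER1 at 5.23 ± 0.182, KDM2B at 3.95 ± 0.149 and HMGA2 at 2.49 FPKM. Here the libraries of IGF2BP1 and IGF2BP3 overlapped, and those of KDM2A and DICER1 stood far apart. HMGA2 had the lowest FPKM of the 8 genes in both groups, a rank that rests on its deposited length and could be higher for a shorter transcript.

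**Figure D3:**
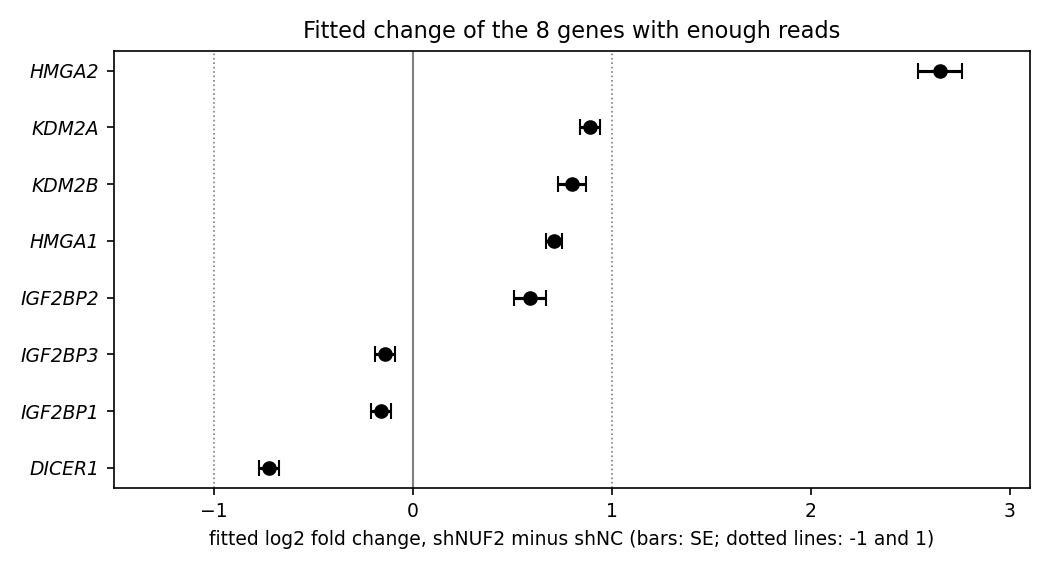
Fitted log2 fold change (shNUF2 minus shNC) of the 8 genes with enough reads, with standard errors as bars and the thresholds of −1 and 1 as dotted lines. HMGA2 lies at 2.65, the other 7 genes lie between −0.72 (DICER1) and 0.89 (KDM2A).

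A list of 20 genes of let-7 processing and action held genes that promote maturation or carry the mature microRNA and also genes that block, tag, edit or degrade its precursors. Of these 19 were fitted and 0 were called by the fold rule. At an adjusted p under 0.05 (edgeR's quasi-likelihood test) 12 were lower and 2 higher, beside 33.8% and 33.9% of all genes, and their median log2 fold change was −0.26, against −0.01 for all genes tested. DGCR8, the RNA-binding partner of DROSHA, fell most, from 58.0 ± 1.83 to 34.2 ± 0.421 CPM (SD, n = 3), a log2 fold change of −0.76 ± 0.07 with an adjusted p of 1.13e-10. XPO5, which exports microRNA precursors from the nucleus, fell from 152 ± 0.264 to 96.2 ± 5.92 CPM (−0.66 ± 0.05). DROSHA itself changed little, from 256 to 235 CPM (−0.13 ± 0.04). TARBP2 and PRKRA, the double-stranded RNA binding partners of DICER1, were lower by similar amounts, with −0.47 ± 0.09 and −0.42 ± 0.08. The Argonaute genes, whose proteins carry the mature microRNA, were not uniform. AGO3 fell (−0.47 ± 0.07) and AGO4 fell (−0.26 ± 0.08), while AGO2, the most strongly counted, was at 182 ± 3.84 and 188 ± 6.6 CPM and did not pass the test. The 2 genes that rose were KHSRP (0.41 ± 0.05), which promotes let-7 maturation, and TUT7 (0.35 ± 0.06), one of the uridylyl transferases that tag let-7 precursors. The other such transferase, TUT4, fell (−0.36 ± 0.05), as did ADAR (−0.28 ± 0.04), an RNA-editing enzyme. TRIM71 was at or near 0 in every library.

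A list of 35 further let-7 targets was named from general knowledge. Like the other lists, it was drawn up with earlier results of these data known, so its counts are given as description. Of the 31 that were fitted 6 were called higher and 0 lower, beside 9.41% and 4.16% of all genes. At an adjusted p under 0.05 (edgeR) 16 were higher and 7 lower, beside 33.9% and 33.8%, with a median log2 fold change of 0.19. The 4 largest increases were those of IL6, a cytokine, from 3.92 ± 0.51 to 52.7 ± 4.76 CPM (3.75 ± 0.12), ITGB3, an integrin subunit, from 2.98 ± 1.06 to 17.6 ± 2.87 CPM (2.57 ± 0.19), ARID3B, a DNA-binding protein, from 16.7 ± 0.983 to 49.6 ± 4.08 CPM (1.58 ± 0.09) and IRS2, an adaptor of the insulin receptor, from 128 ± 3.29 to 312 ± 3.77 CPM (1.29 ± 0.04). The 4 were picked for the size of their change. The groups did not overlap for any of them, and the least certain, ITGB3, had an adjusted p of 2.9e-12 by edgeR. HRAS and NRAS, which encode small GTPases, rose by less, with log2 fold changes of 0.46 ± 0.12 and 0.19 ± 0.04. MYC was at 315 ± 12.6 and 297 ± 14.4 CPM and did not pass the test. The cell cycle genes CDK6 (−0.76 ± 0.05) and CCND1 (−0.70 ± 0.04) fell, and E2F5 was the lowest of the list (−0.86 ± 0.20). The list was also split by seed match in any annotated coding transcript. Of the 24 fitted genes with at least 1 match, 5 were called higher and their median log2 fold change was 0.21. Of the 7 without a match, 1 was called higher, IL6, and their median was −0.08. The 9 with at least 2 matches had a median of 0.62, 2 of them called higher, HIC2 and BACH1. The difference between these groups was not tested.

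Of 20 further histone demethylases, 8 were higher and 5 lower at an adjusted p under 0.05 (edgeR), beside 33.9% and 33.8% of all genes, with a median log2 fold change of 0.06. KDM7A rose from 46.5 ± 4.61 to 123 ± 10.3 CPM (1.41 ± 0.07, adjusted p = 4.25e-16 by edgeR) and KDM3A from 123 ± 8.68 to 300 ± 18.7 CPM (1.29 ± 0.05, adjusted p = 1.9e-17). Both encode demethylases of histone H3 lysine 9, KDM7A also of lysine 27. They were the only 2 of the 20 called higher and 0 were called lower, beside 9.41% and 4.16% of all genes. The other listed demethylases reported to act on lysine 36 went in both directions. KDM4A (−0.82 ± 0.10) and KDM8 (−0.70 ± 0.29) fell, KDM4B (0.48 ± 0.07) and KDM4C (0.21 ± 0.07) rose, and RIOX1 was at −0.19 ± 0.17 and did not pass the test. Among 8 listed H3K36 methyltransferases, 5 fell and 1 rose at an adjusted p under 0.05 (edgeR), beside 33.8% and 33.9% of all genes, and their median log2 fold change was −0.34. Of the 8, 1 was called lower and 0 higher, beside 4.16% and 9.41% of all genes. The gene called was NSD1, which writes H3K36me2, from 306 ± 11.3 to 137 ± 7.38 CPM (−1.15 ± 0.05, adjusted p = 2.21e-17 by edgeR). ASH1L (−0.46 ± 0.04), SETD2 (−0.38 ± 0.05) and NSD3 (−0.30 ± 0.06) fell by less, and NSD2 was at 237 ± 3.67 and 223 ± 9.05 CPM and did not pass the test.

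The partners of KDM2B in PRC1.1 were not called, with 4 of 9 higher and 2 lower at an adjusted p under 0.05 (edgeR), beside 33.9% and 33.8% of all genes, and a median log2 fold change of 0.08. BCORL1, a scaffold of the complex, showed the largest change, from 18.5 ± 2.44 to 35.6 ± 1.68 CPM (0.94 ± 0.10). The other high-mobility group proteins bind nucleosomes and bent DNA. Of 8 HMGB and HMGN genes 5 fell and 1 rose at an adjusted p under 0.05 (edgeR), beside 33.8% and 33.9% of all genes, 0 were called, and the median was −0.17. HMGB2 (−0.01 ± 0.04) and HMGN5 (−0.14 ± 0.09) did not pass the test. HMGN2 showed the largest change, from 297 ± 4.87 to 173 ± 4.22 CPM (−0.78 ± 0.04). The m6A machinery, which sets and reads the RNA mark that IGF2BP proteins bind, gave 7 of 14 higher and 4 lower at an adjusted p under 0.05 (edgeR), again beside 33.9% and 33.8% of all genes, and 0 called, with a median of 0.12. YTHDC2, a reader and helicase, showed the largest change there, from 71.8 ± 2.87 to 41.5 ± 6.1 CPM (−0.79 ± 0.08). Of the genes that encode or host let-7 precursors, 3 of 19 were in the table used here. HUWE1 and WDR82 fell, with log2 fold changes of −0.34 ± 0.04 and −0.51 ± 0.05, and SPACA6 was called higher, from 4.48 ± 0.696 to 9.82 ± 1.37 CPM (1.13 ± 0.18, adjusted p = 2.59e-06 by edgeR). A host gene's messenger RNA does not measure the microRNA within it.

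**Figure D4:**
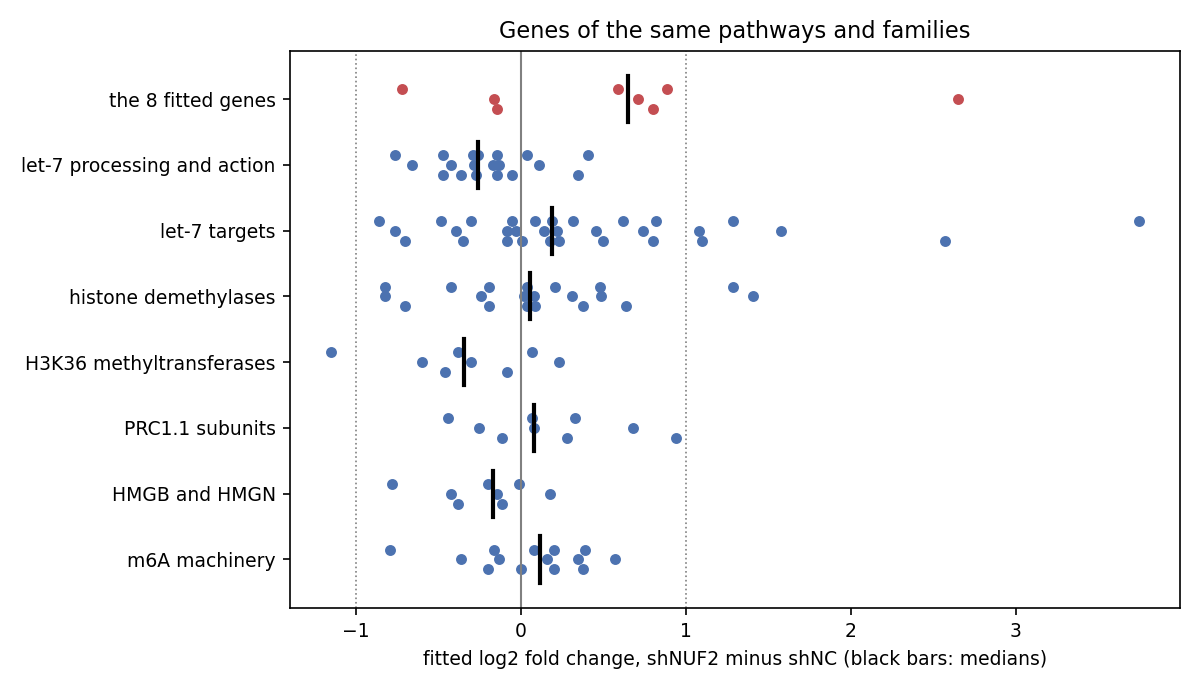
Fitted log2 fold change (shNUF2 minus shNC) of the 8 fitted genes of the group (red) and of the fitted genes of 7 related lists (blue), 1 point per gene, with black bars at the medians and dotted lines at −1 and 1. The medians of the lists lie between −0.34 (H3K36 methyltransferases) and 0.19 (let-7 targets), and that of the group at 0.65.

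Across all genes the median log2 fold change lay between −0.03 and 0.01 at every number of let-7 seed matches. The motif CTACCTC was counted in the longest annotated 3′ UTR of each tested gene, leaving out the 10 genes. Of 11356 genes with 0 matches 9.41% were called higher and 4.22% lower, with a median log2 fold change of −0.01. With 1 match (1255 genes) the shares were 9.08% and 3.59% and the median −0.03, and with 2 matches (148 genes) 7.43% and 3.38% and the median 0.01. Only 23 genes had 3 or more matches, of which 2 were called higher (8.7%) and 3 lower (13%), with a median of −0.01. The 3′ UTRs grew longer with the number of matches, from a median of 1215 bases at 0 matches to 5954 at 3 or more. Among 3′ UTRs of at least 2700 bases, 8.72% of genes with 0 matches and 9.15% of those with at least 1 were called higher, with medians of −0.02 and −0.03. No test of the difference was run.

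The genes with 3 or more matches that were called and averaged at least 1 log2 CPM were HIC2, SDR42E1 and ACP6. HIC2, a transcriptional repressor with 4 matches, rose from 11.6, 12 and 13.6 CPM to 25.6, 24.6 and 29.7 CPM, a log2 fold change of 1.1 ± 0.11 (adjusted p = 1.02e-09 by edgeR). ACP6, an acid phosphatase with 3 matches, fell from 34.9, 38.1 and 34.1 CPM to 15.6, 16.9 and 14.9 CPM (−1.18 ± 0.09). SDR42E1, a dehydrogenase family member with 3 matches, fell from 8.09, 10.1 and 8.37 CPM to 2.37, 5.16 and 3.32 CPM (−1.30 ± 0.21). The groups did not overlap in any of the 3, which were picked because they were called. Of all genes 35.2% lay above and 35.4% below in every shNUF2 library. PTAFR (2.82) and LIMD2 (−1.0) were called as well at lower counts. NR6A1, with 5 matches, was at 10.2 ± 1.25 and 18.1 ± 0.417 CPM (0.82 ± 0.12).

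**Figure D5:**
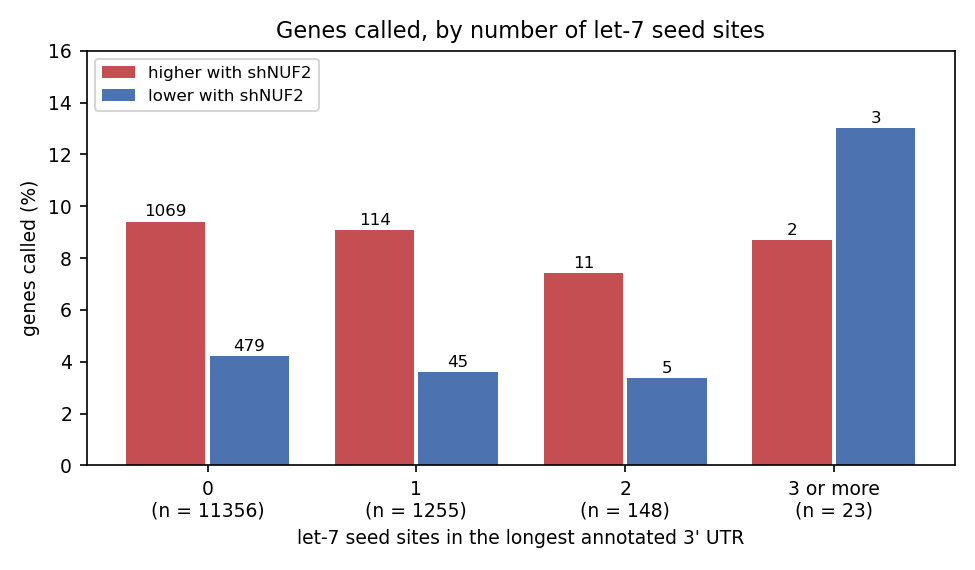
Percent of tested genes called higher (red) or lower (blue) with shNUF2, by the number of let-7 seed matches in the longest annotated 3′ UTR, with the number of genes called above each bar and the number of genes below. The share called higher is 9.41% at 0 matches, 9.08% at 1, 7.43% at 2 and 8.7% at 3 or more, the last resting on 2 of 23 genes.

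A hairpin can also lower transcripts that match its own seed. The guide strand of shNUF2 has the seed AATTGCT at bases 2 to 8, and its complement AGCAATT occurred in the longest 3′ UTR of 14.2% of the tested genes. It occurred once each in HMGA2-204, LIN28B, IGF2BP1 and DICER1. The seed of the control hairpin was not searched. The match of DICER1 lies on the minus strand at chr14:95088526-95088547, in the last of 29 exons and in 3 of 7 coding transcripts, and is shown because DICER1 was the lowest of the 10 genes relative to shNC.
DICER1 guide seed match: accagttaaaacaaAGCAATTc
Genes with at least 1 such match were called lower in 3.87% of cases and genes without in 4.21%, with median log2 fold changes of −0.04 and −0.01. Their median 3′ UTR lengths were 3382 and 1147 bases. Among 3′ UTRs of at least 2700 bases the shares called lower were 3.59% and 3.94% and the medians −0.06 and −0.01, and the difference was not tested. Whether the hairpin acts on DICER1 was not tested.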

How the data were processed

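The authors prepared libraries with a stranded mRNA kit, sequenced them on a NovaSeq instrument and deposited raw read counts per gene. They also deposited FPKM values, which equal the count over gene length and library total to a relative deviation of 2.71e-07. The submitters' processing notes name cutadapt, HISAT, HTSeq and GRCh38.p13, with versions and settings not given in the sources used here. The counts were fitted in edgeR 4.0.16 under R 4.3.3 (filterByExpr, TMM, quasi-likelihood test, no covariate), with Benjamini-Hochberg adjustment over 12874 genes. limma 3.58.1 and DESeq2 1.42.0 served as alternatives. On simulated data edgeR found 200 of 200 changed genes with 3 others called among 12764. The planted changes were all larger than the calling threshold, lay in well-counted genes and had the same spread in every gene. This recovery therefore does not bear on smaller changes, which were not tried. The biological coefficient of variation was 4.9%. Python 3.11.15 with pandas 2.3.3 was used for the sequence search.

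The members and the gene lists were chosen with earlier results of these data known. Named genes are the 10 members, NUF2, the called genes of each list (at most 4 per direction) or, with none, the gene of largest change, called genes with 3 or more let-7 matches, and the 3 genes most correlated with HMGA2 and with KDM2A. Other listed genes in the text were named after their values were seen. Alternatives were other scalings, tools, filters, pseudocounts of 1 and 0.1 on log2 FPKM, adjusted p, a replicate block, other site definitions and each library left out. Same-numbered libraries did not deviate together (correlations of 0.02, 0 and −0.03). Some listed genes are not reported here.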

Additional observations from a re-analysis of the deposited data

How the results depend on the processing

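The log2 fold change of HMGA2 was 2.59 to 2.69, that of KDM2A 0.85 to 0.95 and that of DICER1 −0.74 to −0.69 with each library left out in turn. No direction of a fitted member changed in any of the 15 alternatives, and the other scalings of the counts shifted the median of all genes by at most −0.037, and fitting without a filter on low counts by 0.086. HMGA2 fell to 1.31 with limma on log2(FPKM + 1) and to 2.36 with log2(FPKM + 0.1), since its FPKM is low and a pseudocount shrinks it. Genes called higher were 1212, with 1198 to 1332 when a library was left out, 756 with at least 1 CPM in every library and 430 with limma on log2(FPKM + 1). Genes called lower were 536, with 534 to 581 over the fits that left out 1 library, 397 with at least 1 CPM in every library, and 206 by limma on log2(FPKM + 1). At an adjusted p under 0.05 and any fold, 4363 genes were higher, 4345 lower, and 82 listed genes, cell type markers not counted, passed in place of 10 (10 to 11 with a library left out). Of genes with at least 2 let-7 matches 12.3% were called, 7.6% higher and 4.68% lower, beside 9.41% and 4.16% of all genes. The share called was 11.6% to 14% over the fits that left out 1 library and 4.68% in limma's fit of log2(FPKM + 1). At an adjusted p and any fold 66.1% passed, 35.1% higher and 31% lower, beside 33.9% and 33.8% of all genes. With the replicate block 1207 genes were higher and 536 lower, HMGA2 remained at 2.65, and the numbers share only a label. The deposited gene length bears on FPKM and not on the fold changes of counts, and LIN28A and LIN28B could not be fitted at this depth.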

Other observations

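The genes whose log2 CPM followed that of HMGA2 most closely over the 6 libraries, among 11776 genes averaging at least 1 log2 CPM, were DUSP6, a phosphatase of ERK (Pearson r = 0.9999), LYPD3, a surface protein (0.9998), and TFAP2C, a transcription factor (0.9998). DUSP6 was at 16.8, 14.5 and 16 CPM with shNC and 82.1, 77.1 and 78.9 CPM with shNUF2, and TFAP2C at 12.7, 12 and 12.7 and at 33.5, 32.9 and 32.9 CPM. For KDM2A they were PRDM2, a zinc finger protein of the PR domain family (0.9995), CD99, a surface glycoprotein (0.9993), and PLIN3, a lipid droplet coat protein (0.9992), with log2 fold changes of 0.53 ± 0.07, 0.74 ± 0.05 and 1.44 ± 0.06. These correlations are descriptions over 6 libraries in 2 separate groups and share the group difference, and 1330 genes exceeded r = 0.98 with HMGA2 and 1141 with KDM2A.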
